A study of Homo sapiens with 17 samples.

Results

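The comparison described here is between NSD1-knockout Cal27 cells given EPZ-6438 and the same cells given DMSO, over every gene that passed a low-count filter. Of 34496 gene rows in the deposited table, 13241 passed and were tested. Cal27 is a human line from a squamous cell carcinoma of the tongue. EPZ-6438, also called tazemetostat, is a small-molecule inhibitor of the methyltransferase EZH2, and DMSO is its solvent. There were 2 libraries of the labelled knockout with DMSO and 2 of the labelled knockout with EPZ-6438, and 2 libraries of Cal27 with DMSO and no knockout label entered the same fit to add to the estimate of spread. Dose and time of exposure are not given in the labels. All 4 libraries of the contrast carry the knockout label, so the response of Cal27 cells with NSD1 intact to EPZ-6438 was not analysed here. The labels name 1 knockout line, in which loss of NSD1 and the history of that line cannot be told apart.

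EZH2 is the catalytic subunit of Polycomb repressive complex 2 (PRC2), which methylates histone H3 at H3K27, and the trimethylated form, H3K27me3, marks silenced developmental and lineage genes. Polycomb repressive complex 1 (PRC1) contains CBX proteins that bind this mark. NSD1 places the dimethyl mark H3K36me2 on the same histone, and H3K36 methylation on a histone tail hinders PRC2 from methylating that tail. In squamous epithelium, many genes of the interferon response, of antigen presentation and of mucosal defence are raised by infection or inflammation. Their levels at rest differ from gene to gene.

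The 4 libraries held between 11745655 and 15509079 counts, and levels are given below as CPM, counts scaled to a common library size, here after TMM scaling. Mitochondrial transcripts took 6.27% and 6.08% of counts with DMSO and 5.83% and 5.44% with EPZ-6438. NSD1 itself read 164 and 162 CPM with DMSO, 160 and 149 CPM with EPZ-6438, and a mean of 113 CPM in Cal27 with DMSO. These counts do not check the knockout label, since a disrupted gene can still be transcribed. NSD1 did not pass the test between the treatments (edgeR adjusted p = 0.13), although it did when EPZ-6438 replicate 1 was left out (log2 fold change -0.13, adjusted p = 0.0283). No label says whether the replicates were separate cultures, so p-values measure the spread between these libraries, which may be technical.

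With EPZ-6438, 3393 genes rose (25.6% of those tested) and 3171 fell (23.9%) at a Benjamini-Hochberg adjusted p below 0.05 in edgeR's quasi-likelihood test. Together they made up 49.6% of the tested genes. The increases were larger than the decreases. The median log2 fold change was 0.62 among genes that rose and -0.29 among genes that fell, against 0.0029 over all tested genes. A rise of at least 2-fold was called for 1199 genes (9.06%) and a fall of that size for 120 (0.906%). At 8-fold and above, 263 rose and 8 fell. The filter let 187 genes through only because of their level with EPZ-6438, and 166 of these were among the genes that rose at least 2-fold, as such genes had to differ.

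**Figure D1:**
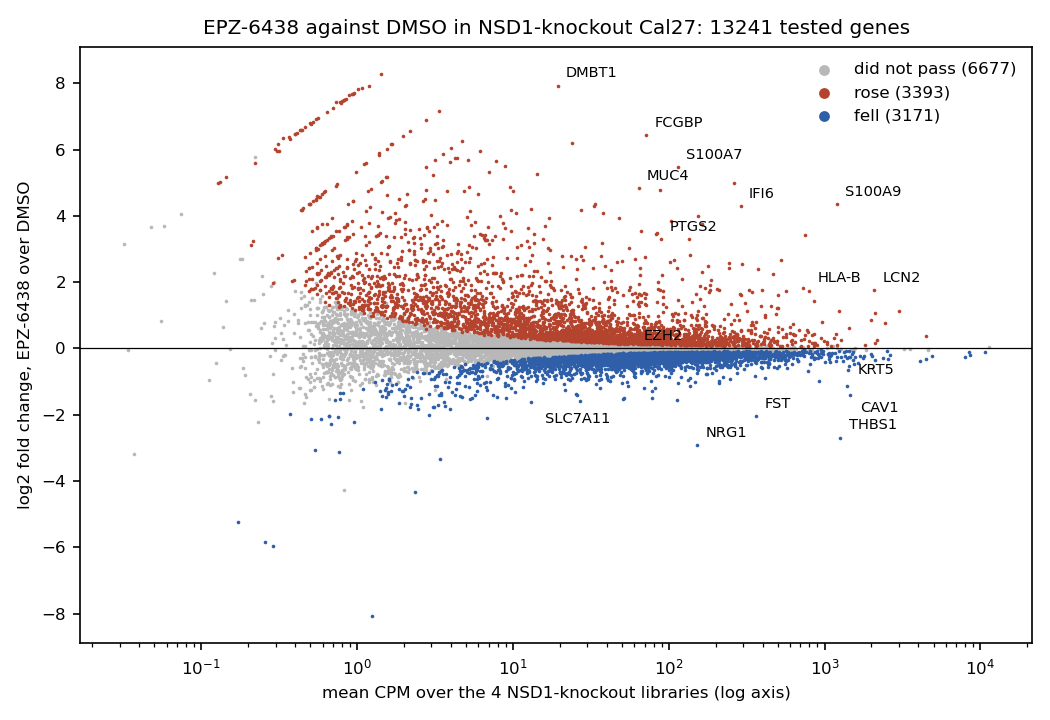
Each point is 1 of 13241 tested genes, with its mean CPM over the 4 knockout libraries on a log x axis and its log2 fold change (EPZ-6438 over DMSO) on the y axis, coloured by call. Genes above 2 on the y axis outnumber those below -2 (517 against 20 called genes), and the diagonal stripes at low CPM are genes with 0 or few counts in 1 group.

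The transcripts of PRC2 itself differed little. EZH2 read 61.3 and 62 CPM with DMSO and 58.4 and 63.7 CPM with EPZ-6438 (log2 fold change -0.01 ± 0.06, SE), and the groups overlapped. The paralogue EZH1 and the core subunits EED and SUZ12 had log2 fold changes of 0.09, -0.01 and -0.07 and did not pass. Of 14 tested PRC2 subunits, 3 rose and 2 fell, and none changed 2-fold. PRC1 moved more: 11 of 22 tested subunits rose, 1 of them at least 2-fold, and 3 fell, with a median log2 fold change of 0.22. Among all tested genes 25.6% rose and 23.9% fell. Against a log2 change of 0.5, 3 PRC1 rises and none of the falls were called. With DESeq2, 9 PRC1 subunits rose and none fell. Without DMSO replicate 1 or EPZ-6438 replicate 2, 1 subunit of each complex fell, and without DMSO replicate 2, 1 PRC1 subunit fell. CBX2, an H3K27me3 reader, read 6.31 and 6.7 CPM with DMSO and 12.8 and 16.3 CPM with EPZ-6438 (1.17 ± 0.15, SE, on the log2 scale, adjusted p = 8.38e-06). BMI1, a RING-finger partner of the PRC1 ubiquitin ligase, read 22.6 and 27.2 CPM and then 48.8 and 50.3 CPM (0.99 ± 0.09). For both genes the treated libraries lay above the DMSO libraries. Enzymes that act on the same residues had no common direction. Of 4 H3K27 demethylases and acetyltransferases 2 rose and 1 fell, and none rose without DMSO replicate 1, DMSO replicate 2 or EPZ-6438 replicate 1, or with DESeq2. Of 11 H3K36 methyltransferases and demethylases 2 rose and 2 fell, with 1 rise and 1 fall without DMSO replicate 1 or with DESeq2, and 1 rise without EPZ-6438 replicate 1. The H3K27 demethylase KDM6A was at -0.48 on the log2 scale, the H3K36 methyltransferase NSD2 at -0.31 and the demethylase KDM4B at 0.45.

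Developmental genes are the classical targets of Polycomb. Of 39 HOX genes, which set position along the body axis, 29 were tested and 10 lay under the filter. Of the tested HOX genes 13 rose and 1 fell, and 6 rose at least 2-fold, beside 9.06% of all tested genes and 24.1% of those between 1 and 5 CPM in Cal27 with DMSO. The filter let 2 of the HOX genes through only by their level with EPZ-6438. HOXC10 was at 3.23 and 2.88 CPM with DMSO and at 7.59 and 6.93 CPM with EPZ-6438 (log2 fold change 1.24 ± 0.18, SE). Most HOX levels were low, and the 6 genes that rose at least 2-fold had means of 3.06 CPM or less with DMSO. The highest DMSO means were those of HOXD10 (38.7 CPM), HOXD11 (18.8), HOXA10 (17.8), HOXD9 (17.5) and HOXA3 (17.2). Of these HOXA3 rose, HOXD9 fell and the others did not pass. All but HOXA3 were named after their values were seen. With DESeq2 6 HOX genes rose, at a filter of 5 CPM 4 rose, and without DMSO replicate 2 or EPZ-6438 replicate 2 none fell. Among other developmental transcription factors, 67 of 145 listed were tested, 23 rose (14 at least 2-fold) and 7 fell, and 74 lay under the filter. Of the tested factors 2 had passed only through EPZ-6438, and of all genes between 1 and 5 CPM 30.9% rose. SOX2, a stem cell factor of squamous epithelium, read 1.77 and 1.8 CPM and then 7.75 and 7.82 CPM (2.12 ± 0.19). FOXA1, a pioneer factor of glandular epithelium, read 7.08 and 6.84 CPM and then 23.1 and 22.8 CPM (1.72 ± 0.13). Both were higher in each treated library than in either DMSO library. DESeq2 called 14 of the developmental factors as higher and 3 as lower, and 14 were higher at a filter of 5 CPM. In the list of neuronal and synaptic genes 34 of 51 were under the filter, and of the 17 tested, 1 of which passed only through EPZ-6438, 10 rose and 1 fell, with 5 higher at a filter of 5 CPM and none lower without DMSO replicate 2 or EPZ-6438 replicate 2. The cell-cycle inhibitor gene CDKN1C, often described as a PRC2 target, had 1 and 3 counts with DMSO and 9 and 11 with EPZ-6438 and was under the filter.

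Large increases were seen in proteins that epithelia secrete onto mucosal surfaces. Of 32 such genes 17 were tested, of which 16 rose, 15 of them at least 2-fold, and the median log2 fold change was 2.32. The other 15 were under the filter, and 3 of the tested genes passed it only through their level with EPZ-6438. DMBT1, a scavenger-receptor protein that binds bacteria, was 1 of these 3. It had 2 counts in each DMSO library (0.154 and 0.144 CPM) and read 37.1 and 40 CPM with EPZ-6438 (7.93 ± 0.22 on the log2 scale, SE). Such a gene had to differ to be tested, so no p-value is given for it. FCGBP, a mucus component, read 1.69 and 1.58 CPM with DMSO and 138 and 145 CPM with EPZ-6438 (6.43 ± 0.10). Mean levels in Cal27 with DMSO were 0.295 CPM for DMBT1 and 1.06 CPM for FCGBP, so both treated libraries lay above the parental line as well. PIGR, the receptor that carries immunoglobulin A across epithelium, read 12.6 and 14.3 CPM and then 190 and 197 CPM (3.84 ± 0.07). The iron-binding protein LTF went from 0.308 and 0.288 CPM to 14 and 16.8 CPM (5.66 ± 0.29). LCN2, which binds bacterial siderophores, was already abundant at 941 and 944 CPM and reached 3204 and 3203 CPM (1.77 ± 0.02). It had the largest gain in CPM of any called gene. The antiproteases PI3 (elafin) and SLPI rose by 4.77 and 2.32 on the log2 scale. All 6 tested mucin genes of 18 listed, both membrane-bound and secreted, rose at least 2-fold, 1 of them having passed the filter only through EPZ-6438, with a median of 2.41, or 2.28 when a member at 0 with DMSO is set to a bound of 3 counts per library. The membrane mucin MUC4 read 4.54 and 4.18 CPM with DMSO and 127 and 121 CPM with EPZ-6438 (4.83 ± 0.10), and the membrane mucins MUC1 and MUC16 rose by 1.76 and 1.68.

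**Figure D2:**
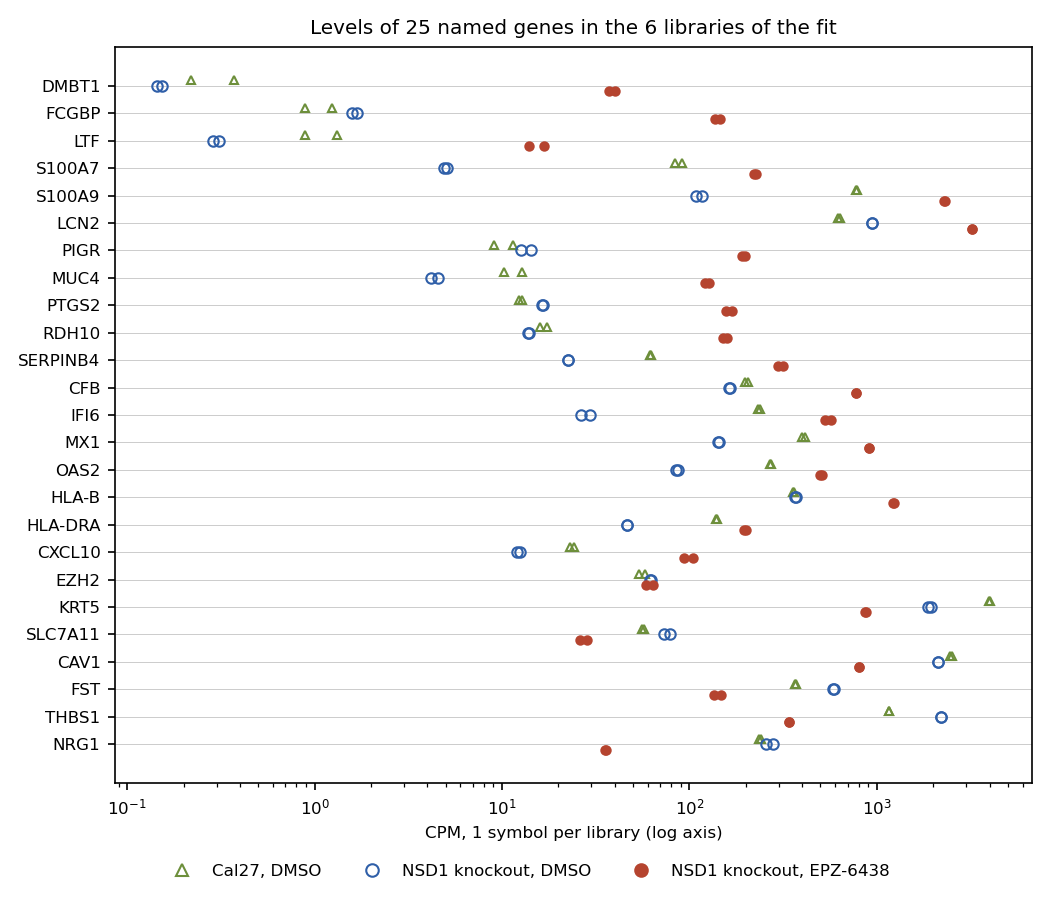
CPM of 25 genes in each library on a log x axis: open circles are the knockout with DMSO, filled circles the knockout with EPZ-6438 and triangles Cal27 with DMSO, 2 symbols each. The 2 libraries of a group lie close together, and open and filled circles are apart for every gene shown other than EZH2.

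S100 alarmins, oxidant enzymes and complement genes rose beside these. S100A8 and S100A9, whose products form calprotectin, a metal-chelating antimicrobial dimer, read 15.8 and 15.8 CPM and 117 and 109 CPM with DMSO, and 496 and 517 CPM and 2284 and 2306 CPM with EPZ-6438. Their log2 fold changes were 5.01 ± 0.05 and 4.35 ± 0.03 (SE). S100A7 (psoriasin) read 4.93 and 5.11 CPM and then 222 and 226 CPM (5.48 ± 0.07). Other family members behaved differently. Of 14 tested S100 genes 9 rose and 1 fell, only 5 rose at least 2-fold, and the median of the family was 0.29. All 7 tested genes of the oxidant-generating list rose. Among them were the hydrogen peroxide source DUOX2, from 3.85 and 5.26 CPM to 20.1 and 21.6 CPM (2.19 ± 0.15), and the DUOX-family maturation factor DUOXA1 (1.77 ± 0.22). In the complement list 14 of 17 tested genes rose and none fell, with a median of 0.92. CFB, the protease of the alternative pathway, read 162 and 165 CPM and then 776 and 777 CPM (2.25 ± 0.03), and C1S, of the classical pathway, rose by 1.27. The central component C3 was at 1114 and 1131 CPM with DMSO and 1742 and 1715 CPM with EPZ-6438 (0.62 ± 0.02). Over the mucosal defence, mucin, S100, oxidant and complement lists together, 52 of 61 tested genes rose and 1 fell (4 of the 61 had passed only through EPZ-6438), beside 25.6% and 23.9% of all tested genes.

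Nearly all tested genes of 4 lists of interferon-stimulated genes rose. Among all tested genes 25.6% rose, and 9.06% rose at least 2-fold. Over the OAS, IFIT and IFI, antiviral and guanylate-binding protein lists, 47 of 49 tested genes rose, 38 of them at least 2-fold, with a median of 1.44, and none had passed the filter through the treated libraries alone. Exceptions in the other direction were ZC3HAV1, an RNA-binding antiviral factor, at -0.22, and GBP6 at -0.42. GBP6 lost its call without DMSO replicate 1 (adjusted p = 0.093, log2 fold change -0.29). ZC3HAV1 was named after its values were seen. Outside these lists, 2 of 5 tested APOBEC3 cytidine deaminase genes rose, neither of them 2-fold, and none fell. IFI6, a membrane protein that limits flavivirus replication, read 29.6 and 26.4 CPM with DMSO and 532 and 568 CPM with EPZ-6438 (4.30 ± 0.05, SE, adjusted p = 1.65e-19). MX1, a dynamin-like GTPase against influenza virus, read 143 and 143 CPM and then 906 and 908 CPM (2.67 ± 0.03), and its paralogue MX2 rose by 3.99. The double-stranded RNA sensor OAS2 was at 86.5 and 85.2 CPM and then at 498 and 506 CPM (2.55 ± 0.03). Cal27 with DMSO had means of 235 CPM for IFI6 and 406 CPM for MX1, between the 2 knockout groups.

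Of interferon receptors, JAK kinases and STATs 12 of 16 tested genes rose and none fell, with a median of 0.41. By comparison, 25.6% of all tested genes rose and 23.9% fell. In the IRF family 5 of 7 rose and 1, IRF3, fell (-0.18), and DESeq2 called 3 as higher. IRF9, the DNA-binding part of the complex that recognises the interferon-stimulated response element (ISRE), read 28.7 and 29.4 CPM with DMSO and 90.8 and 94.9 CPM with EPZ-6438 (1.68 ± 0.06, SE). STAT2, which binds IRF9 in that complex, rose by 0.95. IRF7, which amplifies interferon production, rose by 2.61, and IRF1 by 0.35. Among sensors of foreign nucleic acid 14 of 17 tested genes rose and 1 fell. DDX58 (RIG-I) rose by 0.74, IFIH1 (MDA5) by 0.99 and TLR3 by 0.79, while CGAS, the cytosolic DNA sensor, read 53.5 and 50.7 CPM and then 34.5 and 36.6 CPM and fell by 0.55. ZBP1, a Z-form nucleic acid sensor named after its values were seen, read 0.616 and 0.504 CPM and then 10.9 and 9.35 CPM (4.15 ± 0.28). Interferon transcripts themselves were nearly undetected. Of 8 listed interferon genes 7 lay under the filter, IFNB1 with 2 and 2 counts with DMSO and 2 and 5 with EPZ-6438, and IFNL1 with 0 and 2 and then 1 and 2. Of 10 tested negative regulators 3 rose and 2 fell, with a median of 0.0041, and 1 fell when any 1 of the 4 knockout libraries was left out. USP18 and SOCS3 rose by 2.63 and 0.34, and CISH and SOCS2 were at -0.86 and -0.70.

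Promoters of 7 genes that rose are shown because the letters of the ISRE or of an NF-kappaB motif can be read in them. They belong to IFI6, IFIT1 and IFI27, to the immunoproteasome subunit PSMB10, to the chemokines CXCL1 and CXCL3, and to B2M, the light chain of class I molecules. Sequences and positions are from RefSeq (GRCh38.p14), 250 bases before to 50 after the start of the gene, written 5′ to 3′ on the gene's strand. Capitals mark matches on either strand to the first 9 letters of the ISRE (GAAANNGAA) in IFI6, IFIT1, IFI27 and PSMB10, to the last 9 letters of an NF-kappaB motif (GGANTTTCC) in CXCL1 and CXCL3, and to either in B2M. The CXCL3 promoter also holds the ISRE letters, which are left in lower case there.
IFI6, chr1:27672143-27672442, minus strand: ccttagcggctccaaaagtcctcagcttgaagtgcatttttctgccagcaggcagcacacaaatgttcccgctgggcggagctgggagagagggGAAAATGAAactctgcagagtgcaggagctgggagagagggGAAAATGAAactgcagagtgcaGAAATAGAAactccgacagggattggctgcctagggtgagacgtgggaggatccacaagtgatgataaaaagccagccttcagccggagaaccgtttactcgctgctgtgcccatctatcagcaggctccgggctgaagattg
IFIT1, chr10:89392373-89392672, plus strand: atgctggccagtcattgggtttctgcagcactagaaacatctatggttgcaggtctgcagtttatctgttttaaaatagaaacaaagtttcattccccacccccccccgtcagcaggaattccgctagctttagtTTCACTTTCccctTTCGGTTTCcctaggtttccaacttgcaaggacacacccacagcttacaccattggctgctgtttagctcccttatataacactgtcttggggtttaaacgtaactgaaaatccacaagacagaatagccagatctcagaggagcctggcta
IFI27, chr14:94110486-94110785, plus strand: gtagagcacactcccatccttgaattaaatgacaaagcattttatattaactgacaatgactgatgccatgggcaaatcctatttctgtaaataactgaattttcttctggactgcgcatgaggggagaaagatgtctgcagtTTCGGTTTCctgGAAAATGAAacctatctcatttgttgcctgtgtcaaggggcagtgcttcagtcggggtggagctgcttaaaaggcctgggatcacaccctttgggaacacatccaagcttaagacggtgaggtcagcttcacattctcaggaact
PSMB10, chr16:67936801-67937100, minus strand: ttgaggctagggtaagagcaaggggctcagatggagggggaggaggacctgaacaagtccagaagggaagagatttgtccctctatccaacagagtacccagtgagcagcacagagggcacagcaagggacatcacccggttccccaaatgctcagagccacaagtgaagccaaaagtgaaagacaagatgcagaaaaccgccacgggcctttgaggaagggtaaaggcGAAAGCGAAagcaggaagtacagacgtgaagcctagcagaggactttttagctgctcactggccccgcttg
CXCL1, chr4:73869143-73869442, plus strand: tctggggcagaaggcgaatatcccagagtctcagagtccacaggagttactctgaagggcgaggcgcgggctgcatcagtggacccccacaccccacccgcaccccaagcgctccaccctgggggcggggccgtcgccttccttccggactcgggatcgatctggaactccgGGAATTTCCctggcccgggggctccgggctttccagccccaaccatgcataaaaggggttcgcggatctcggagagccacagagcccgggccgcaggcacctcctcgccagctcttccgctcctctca
CXCL3, chr4:74038640-74038939, minus strand: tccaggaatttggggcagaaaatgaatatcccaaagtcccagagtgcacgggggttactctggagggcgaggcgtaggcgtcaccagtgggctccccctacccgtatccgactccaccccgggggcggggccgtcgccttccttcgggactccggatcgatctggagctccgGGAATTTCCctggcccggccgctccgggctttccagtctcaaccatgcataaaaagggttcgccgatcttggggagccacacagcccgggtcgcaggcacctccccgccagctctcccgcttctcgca
B2M, chr15:44711267-44711566, plus strand: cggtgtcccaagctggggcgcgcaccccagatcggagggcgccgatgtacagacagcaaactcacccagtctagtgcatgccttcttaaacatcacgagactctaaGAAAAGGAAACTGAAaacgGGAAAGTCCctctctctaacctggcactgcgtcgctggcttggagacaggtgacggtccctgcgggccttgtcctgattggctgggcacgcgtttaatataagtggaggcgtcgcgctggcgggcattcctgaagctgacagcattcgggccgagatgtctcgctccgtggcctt
Of the 10 tested IFIT and IFI genes, 9 were matched to a promoter, and 8 of the 9 held the ISRE letters, which 8.3% of all 27195 promoters of the same length in the table hold. The immunoproteasome list had them in 3 of 5 promoters and the S100 list in 2 of 14. The NF-kappaB letters stood in 5 of 9 matched promoters of the neutrophil and dendritic cell chemokine list, against 1.65% of all promoters, and in none of the 14 S100 promoters. A match is a stretch of letters and not a measured binding site. Shares were not computed for lists in which too few members were matched, nor for all tested genes, of which 77.8% were matched.

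Antigen presentation rose along both routes. HLA-B, a class I heavy chain, read 370 and 365 CPM with DMSO and 1223 and 1239 CPM with EPZ-6438 (1.74 ± 0.03, SE, on the log2 scale). HLA-C rose by 1.13, and the shared light chain B2M went from 1399 and 1427 CPM to 2610 and 2556 CPM (0.87 ± 0.02). Over the class I list 16 of 17 tested genes rose and none fell, beside 25.6% and 23.9% of all tested genes. NLRC5, the class I transactivator, rose by 0.41. Immunoproteasome and constitutive proteasome genes moved in different directions. All 5 immunoproteasome genes rose (PSMB9 from 125 and 137 CPM to 188 and 207 CPM, 0.60 ± 0.05), and 10 of 14 constitutive subunit genes fell with none rising, by small amounts such as -0.24 ± 0.04 for PSMB5, the subunit that PSMB8 replaces. The constitutive genes were abundant, and small falls were common at such levels. Of all genes at 100 CPM and over in Cal27 with DMSO 50.6% fell, with a median of -0.10, beside -0.14 for the constitutive list. Against a log2 change of 0.5 no gene of either proteasome list was called, and 7 of the class I list were. Of 14 tested class II genes 13 rose, with a median of 1.75, and 1 of the 14 had passed only through EPZ-6438. HLA-DRA read 46.2 and 46.2 CPM and then 195 and 201 CPM (4.29-fold, adjusted p = 2.26e-16), HLA-DPA1 rose by 3.69 on the log2 scale and the invariant chain CD74 by 0.59. Cal27 with DMSO had a mean of 140 CPM for HLA-DRA and 359 CPM for HLA-B. Reads of the HLA genes can be shared between near-identical copies, so single HLA values are uncertain. CD274 (PD-L1) did not pass, at 15.3 and 15 CPM and then 13.5 and 13.2 CPM (adjusted p = 0.169).

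Cytokines changed in both directions, whereas no listed chemokine fell. In the CSF, IL-6 and IL-20 list 11 of 21 tested genes rose and 3 fell. In the TNF family 13 of 23 rose and 6 fell, 2 of the 23 having passed only through EPZ-6438. Over all tested genes the shares were 25.6% and 23.9%. All 4 tested T-cell attracting chemokines rose. CXCL10, a ligand of CXCR3, read 12.6 and 12 CPM with DMSO and 94.1 and 105 CPM with EPZ-6438 (3.02 ± 0.08, SE). CCL20, which draws CCR6-bearing cells, read 29.4 and 27.5 CPM and then 175 and 175 CPM (2.62 ± 0.05). Of neutrophil and dendritic cell attractants 10 of 11 tested genes rose and none fell, and 2 of the 11 had passed only through EPZ-6438. The neutrophil attractants CXCL1, CXCL2, CXCL3 and CXCL8 rose by 0.34, 1.11, 1.89 and 0.75. The IL-20 cytokines, which signal between epithelium and immune cells, had large changes: IL19 read 0.539 and 0.216 CPM and then 17.2 and 17.7 CPM (5.52 ± 0.26), IL20 rose by 3.62 and IL24 by 3.40. Within the same list LIF fell by 0.49, as did CSF2 (-0.84) and the receptor subunit IL20RB (-0.49), the last 2 named after their values were seen. Of the TNF family, TNFSF10 (TRAIL) read 77.5 and 78 CPM and then 295 and 290 CPM (1.91 ± 0.04), the CD27 ligand CD70 rose by 5.28, and the receptor TNFRSF21 fell by 0.87. In the list of prostaglandin synthesis and breakdown 5 of 12 tested genes rose and 2 fell, with a median of 0.072. The inducible cyclooxygenase PTGS2 (COX-2) went from 16.2 and 16.5 CPM to 168 and 156 CPM (3.31 ± 0.06) and the prostaglandin E synthase PTGES from 35 and 33 CPM to 241 and 240 CPM (2.82 ± 0.05). Another prostaglandin E synthase, PTGES3, was at -0.20 on the log2 scale and fell, and PTGES2 and the constitutive cyclooxygenase PTGS1, at -0.04 and -0.15 and named after their values were seen, did not pass. Without DMSO replicate 2, PTGS1 did (log2 fold change -0.56, adjusted p = 0.0354). NF-kappaB subunits and feedback genes changed less, with 11 of 17 higher, none 2-fold, and NFKBIA at 0.30.

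Most tested genes of retinoid metabolism and most clade B protease inhibitors were also higher. Over all tested genes 25.6% rose and 23.9% fell. In the retinoid list, whose enzymes turn vitamin A into retinoic acid and back, 13 of 17 tested genes rose and 1 fell, with a median of 1.32, and without EPZ-6438 replicate 1 none fell. RDH10, which oxidises retinol to retinal, read 13.7 and 14 CPM with DMSO and 158 and 151 CPM with EPZ-6438 (3.48 ± 0.06, SE). The next enzyme of the path, ALDH1A3, was at 66.7 and 69.3 CPM and then 139 and 142 CPM (1.05 ± 0.05). DHRS3, which runs the first step in reverse, rose by 1.72, and the carrier CRABP2 by 2.46. Of 10 tested clade B serpins 8 rose: SERPINB4, a squamous cell carcinoma antigen, went from 22.5 and 22.4 CPM to 314 and 296 CPM (3.76 ± 0.05) and its neighbour SERPINB3 rose by 3.29, though reads of this near-identical pair may be shared. SERPINB2, an inhibitor of plasminogen activators, fell by 1.28 and SERPINB5 (maspin, named after its values were seen) by 0.37. ITGA1, the collagen-binding integrin alpha chain, read 3.47 and 2.81 CPM and then 65.1 and 63.3 CPM (4.35 ± 0.11).

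**Figure D3:**
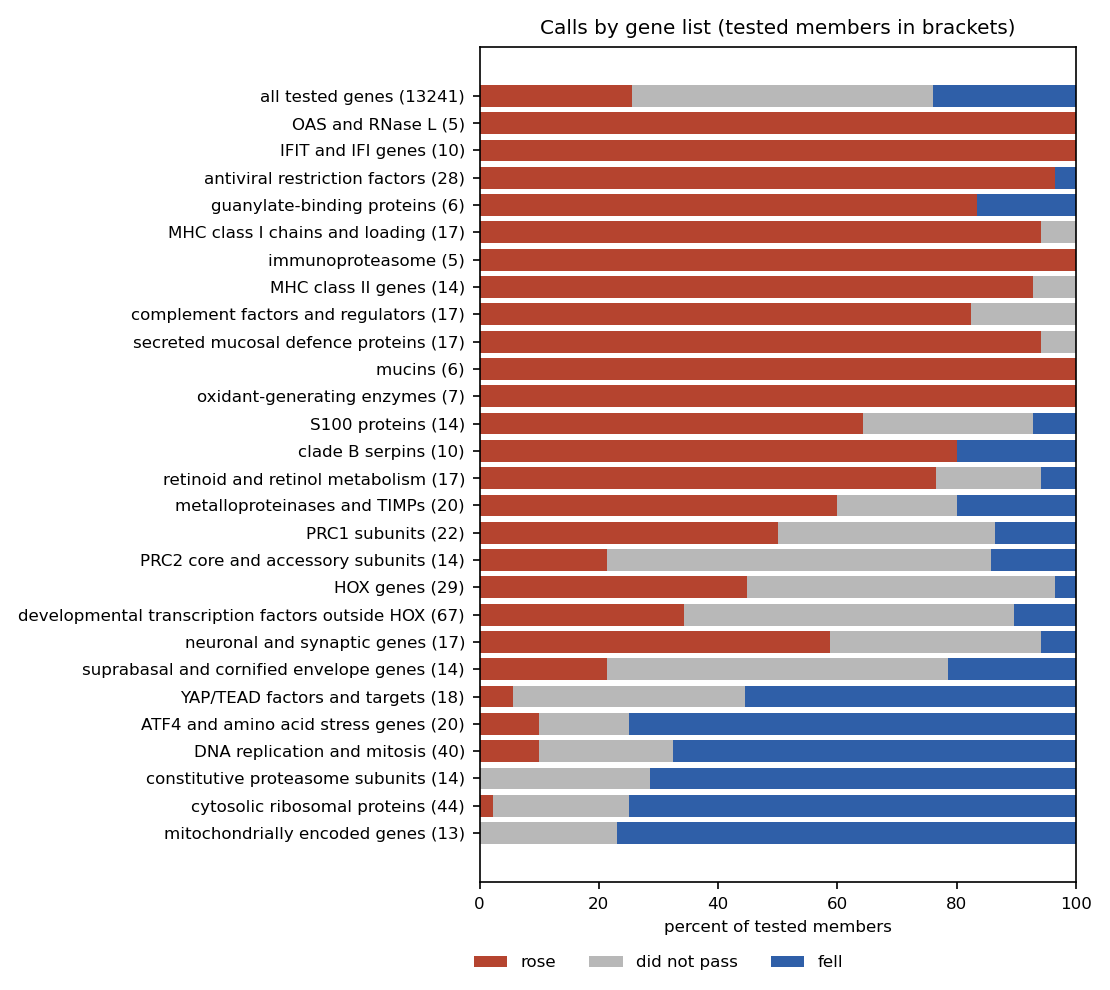
Share of tested members, in percent, that rose, did not pass or fell with EPZ-6438, for all tested genes and 27 gene lists, with the number tested in brackets. Interferon, antigen-presentation and mucosal lists are mostly red (rose), and the lists from YAP/TEAD down are mostly blue (fell), beside 25.6% and 23.9% in all tested genes.

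The decreases were fewer and smaller, and single abundant genes of adhesion and growth were among them. Lists of such genes had no common direction. Of 13 tested EGF-family and ERBB genes 6 rose and 5 fell, and of 19 mesenchymal transition genes 7 rose and 7 fell. Integrins and laminins had 10 rises and 9 falls among 24, and collagens 9 and 7 among 22. THBS1, a matricellular glycoprotein, read 2192 and 2186 CPM with DMSO and 339 and 339 CPM with EPZ-6438 (-2.69 ± 0.02, SE, on the log2 scale, adjusted p = 4.76e-21). NRG1, a ligand of ERBB3 and ERBB4, went from 278 and 258 CPM to 35.2 and 35.7 CPM (-2.91 ± 0.05). CAV1, the coat protein of caveolae, read 2106 and 2124 CPM and then 802 and 799 CPM (-1.40 ± 0.02). In each case both treated libraries lay under both DMSO libraries, and under the mean of Cal27 with DMSO (1156 CPM for THBS1 and 2493 CPM for CAV1). The activin antagonist FST fell by 2.05, and the log2 fold changes of the growth factor FGF2 and of N-cadherin (CDH2) were -1.54 and -1.38. Among YAP/TEAD factors and targets, the output of the Hippo pathway, 10 of 18 tested genes fell and 1 rose. Falls made up 23.9% of all tested genes and 50.6% of those at 100 CPM and over in Cal27 with DMSO. F3 (tissue factor) read 1212 and 1222 CPM and then 623 and 605 CPM (-0.99 ± 0.03), and CCN1 and AXL fell by 0.73 and 0.96. The AP-1 subunit FOSL1 fell by 0.98, whereas 7 of 10 tested AP-1 genes rose, JUND by 0.81 among them.

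Most listed genes of amino acid supply and stress fell. The share that fell was 23.9% over all tested genes and 50.6% at 100 CPM and over in Cal27 with DMSO. In the list of ATF4 and amino acid stress genes 15 of 20 fell and 2 rose, with a median of -0.39, and without DMSO replicate 1 or EPZ-6438 replicate 2 only 1 rose. SLC7A11, the cystine importer, read 79.2 and 73.1 CPM with DMSO and 28.5 and 26 CPM with EPZ-6438 (-1.49 ± 0.07, SE). SLC7A5, which imports large neutral amino acids, was at 1742 and 1741 CPM and then 1096 and 1106 CPM (-0.66 ± 0.02). The serine synthesis gene PSAT1 and asparagine synthetase (ASNS) fell by 0.92 and 0.81. Against a required log2 change of 0.5 (glmTreat), 7 of the 15 were still called.

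Small decreases were common in housekeeping genes, and also in abundant genes of any kind. Of all tested genes 23.9% fell. Of those at 100 CPM and over in Cal27 with DMSO 50.6% fell and 21.7% rose, with a median log2 fold change of -0.10. Of 40 genes of DNA replication and mitosis 27 fell and 4 rose, with a median of -0.19. CDC20, an activator of the anaphase-promoting complex, read 315 and 307 CPM and then 215 and 223 CPM (-0.50 ± 0.03, SE). Of 44 cytosolic ribosomal protein genes 33 fell and 1 rose (median -0.155), and RPLP0 went from 1946 and 1957 CPM to 1551 and 1614 CPM (-0.30 ± 0.02). Of 13 mitochondrially encoded genes 10 fell and none rose (median -0.12). Without EPZ-6438 replicate 1, 2 ribosomal protein genes rose, without DMSO replicate 1 none did, and without EPZ-6438 replicate 2 1 mitochondrially encoded gene rose. None of the falls in these lists, nor in the constitutive proteasome list, was called against a log2 change of 0.5. The cyclin genes CCND1 and CCND2 fell by 0.38 and 1.01, MYC by 0.26, and the CDK inhibitor CDKN1A rose by 0.98, from 21.9 and 21 CPM to 41.3 and 43.4 CPM.

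All 10 squamous epithelial markers were tested, and 7 fell and 3 rose. By comparison, 23.9% of all tested genes fell, and 50.6% of those at 100 CPM and over in Cal27 with DMSO. Against a log2 change of 0.5, 3 of the 7 falls were still called. KRT5, the basal keratin, read 1882 and 1956 CPM with DMSO and 861 and 877 CPM with EPZ-6438 (-1.14 ± 0.02, SE), against a mean of 3994 CPM in Cal27 with DMSO. Its partner KRT14 fell by 0.73 and the basal-layer factor TP63 by 0.35. Summed over the list, the squamous markers came to 4020 and 4160 CPM and then 2590 and 2620 CPM. KRT5 alone made up most of the drop in that sum. The basal keratin KRT15 rose by 0.86 and the stress keratin KRT6B by 1.04. Cornified envelope genes, which mark late squamous differentiation, did not move together: 35 of 50 were under the filter, and of 14 tested 3 rose and 3 fell. Without either DMSO replicate none of the cornified envelope genes rose, and without EPZ-6438 replicate 2 1 did. In bulk RNA fewer cells of a type and less RNA per cell cannot be told apart.

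Markers of other cell types were sparse. Of 16 immune markers 12 were under the filter and 6 (CD3D, CD2, MS4A1, TYROBP, NKG7 and MPO) had 0 counts in all 4 libraries. Their summed level of 177 and 180 CPM with DMSO and 236 and 231 CPM with EPZ-6438 came mainly from CD68 (named after its values were seen), which did not pass (96 and 98.9 CPM, then 100 and 88.7 CPM), and LAPTM5, which rose by 0.57. CD14, a co-receptor for lipopolysaccharide, read 8.78 and 9.72 CPM and then 31.4 and 32.1 CPM (1.78 ± 0.10, SE). Fibroblast markers summed to 10.2 and 7.48 CPM and then 21.5 and 25.3 CPM, with 4 of 5 tested genes higher (2 at a filter of 5 CPM, and 1 of the 5 passing only through EPZ-6438) and THY1 at 0. Endothelial markers summed to 23 and 20.7 CPM and then 26.6 and 29 CPM, with PECAM1 higher by 3.39. The part of other cell types in the results above was not tested.

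The direction and size of change differed with the level of expression. Genes were placed in bands by their mean level in Cal27 with DMSO, libraries that are not part of the contrast. Of 1856 genes between 1 and 5 CPM, 24.1% rose at least 2-fold and 2.64% fell that far. Of 2204 genes at 100 CPM and over, 2.18% rose at least 2-fold and 0.454% fell that far. At any size of change, 50.6% of those abundant genes fell and 21.7% rose, with a median log2 fold change of -0.10. Small changes are easier to call in abundant genes, so the shares at any size are not comparable between bands.

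**Figure D4:**
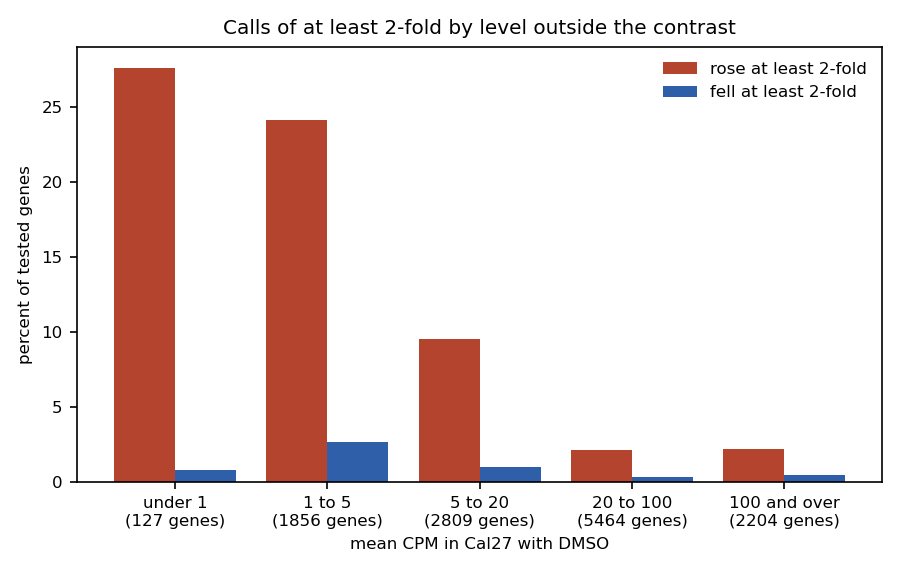
Percent of tested genes that rose (red) or fell (blue) at least 2-fold with EPZ-6438, by mean CPM in Cal27 with DMSO, with the number of genes per band under each pair of bars. Rises fall from 27.6% under 1 CPM to 2.18% at 100 CPM and over, and falls stay under 3% in every band, the highest being 2.64%.

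Genes that rose at least 2-fold were in places next to each other on the chromosome. Among 12469 tested protein-coding genes with a position, 9.24% rose at least 2-fold. There were 14 runs of 4 or more adjacent tested genes that all did so, holding 60 genes. Only 96 of the 12469 fell at least 2-fold, so few that the absence of such a run of falls says little. The longest, on chromosome 1, ran from SPRR2A through PGLYRP4, S100A9, S100A12, S100A8 and S100A7A to S100A7 over 405 kb. PGLYRP4, a peptidoglycan-binding protein, read 3.31 and 3.24 CPM with DMSO and 23.8 and 22.8 CPM with EPZ-6438 (2.82 ± 0.15, SE). The run ended sharply: the next tested genes, SPRR1B before it and S100A6 after it, had log2 fold changes of -0.03 and 0.38. SPRR2A rests on 0 and 1 counts with DMSO and 1 and 11 with EPZ-6438, and lost its call without EPZ-6438 replicate 2 (adjusted p = 0.711, log2 fold change 1.01), and also without either DMSO replicate (adjusted p = 0.199 and 0.0753) or either Cal27 library (0.0629 and 0.0638), and with the replicate block (0.057). S100A7 and S100A7A are close copies whose reads may be shared.

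Matrix metalloproteinases made up the second run, MMP7, MMP10, MMP1, MMP12 and MMP13 over 435 kb of chromosome 11. MMP7 (matrilysin) read 6.93 and 6.84 CPM with DMSO and 45.9 and 50.1 CPM with EPZ-6438 (2.80 ± 0.10, SE), and the collagenases MMP1 and MMP13 rose by 1.87 and 1.88. MMP12 was near the filter (adjusted p = 0.0366) and did not pass when any 1 of the 6 libraries was left out (adjusted p from 0.0534 to 0.235, log2 fold change from 1.34 to 2.39). Beside the run, TMEM123 was at 0.21 and DCUN1D5 at -0.50. Runs of 4 covered GBP1 to GBP5 on chromosome 1 (log2 fold changes 1.02 to 1.65, with GBP3 at 0.77 and GBP6 at -0.42 on either side) and IFIT2, IFIT3, IFIT1 and IFIT5 on chromosome 10 (1.09 to 2.42, with LIPA at 0.61 and SLC16A12 at 0.22). The flanking genes were named for their place, after their values were seen. Neighbouring members of a family share sequence and ancestry, so members of a run are not independent observations.

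**Figure D5:**
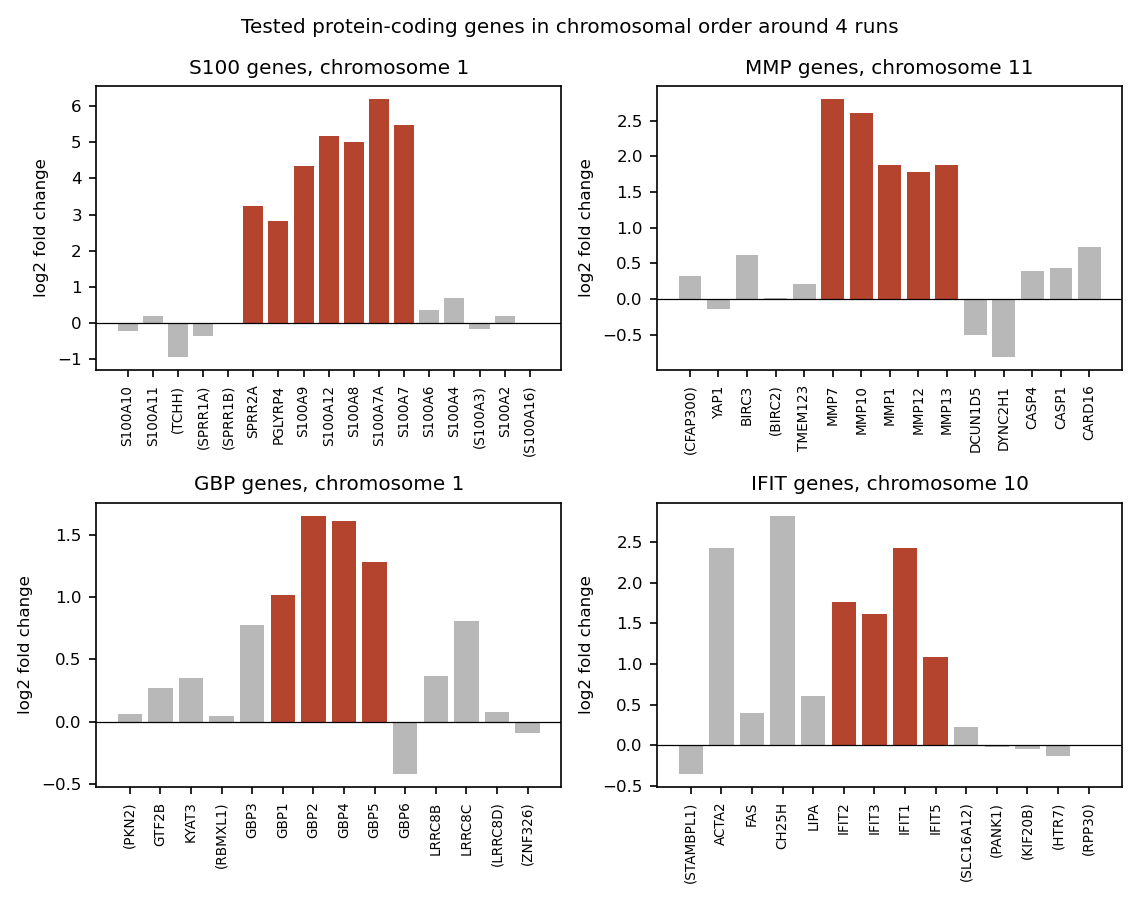
Log2 fold change of tested protein-coding genes in chromosomal order around 4 runs, with run members in red, 5 neighbours on each side in grey, and names in brackets for genes that did not pass. The run members stand above 1 in each panel, while most grey neighbours lie between -1 and 1, with ACTA2 and CH25H near the IFIT genes above that range.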

How the data were processed

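RNA was sequenced from ribosomal RNA-depleted libraries, per the labels' protocols. The authors deposited raw counts per gene, used as deposited. The submitters' processing notes list hg38, Picard 2.23.1, featureCounts 1.6.1, CASAVA 1.7 and HISAT2 2.1.0, without the part each played. The annotation and the strand setting were not given in the sources used here. Total counts of the 6 libraries lay between 11745655 and 15509079.

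One edgeR model (version 4.0.16, under R 4.3.3) took all 3 groups, with group as its only term. Genes entered by filterByExpr (at least 0.726 CPM in 2 libraries, and a total-count minimum), libraries were scaled by TMM, and contrasts were tested by quasi-likelihood F. The spread had 3 residual degrees of freedom and a common biological coefficient of variation of 2.6%. SE was derived from the F statistic. Lists were described by counts and medians, with no test of their own. The members and lists were chosen with earlier results of these data known.

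Named genes were the 20 largest called changes each way at 5 CPM or more without overlap of the groups, per list the 6 called members of lowest adjusted p, a set of preset chromatin, interferon and cell-cycle genes, the 10 largest differences in CPM each way, long non-coding RNAs, and members of the 5 longest runs of neighbours. Others are marked. Values of 30 genes with counts at least 8-fold lower, and 21 at least 8-fold higher, than in both matching untreated libraries are not given. Symbols and gene class came from a RefSeq table (GRCh38.p14), which matched 12685 tested genes by symbol and 209 by an older one. Alternatives were DESeq2 1.42.0, other scalings and filters, a replicate block, glmTreat and leaving out each library. CUT&Tag samples were not used here.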

Additional observations from a re-analysis of the deposited data

How the results depend on the processing

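No called gene was called in the opposite direction under any of the 15 alternatives. The number of genes that rose or fell moved by over 1.5 times only with a test against a log2 change of 0.5 (glmTreat), which called 1272 rises and 204 falls, so most falls were small. Requiring 5 CPM in 2 libraries, which tests fewer genes, left 641 rises and 61 falls of at least 2-fold. DESeq2 called 2546 rises and 2378 falls. Leaving out each library in turn gave 2803 to 3362 rises and 2535 to 3163 falls, and 1092 to 1237 rises and 104 to 142 falls of at least 2-fold. Of 459 called genes that the naming rule or the text takes, 36 lost their call without some 1 library. Under other scalings the median of all genes stayed within 0.01 of 0 and no list median changed sign.

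Replicate numbers were shared between groups, and no pairing of same-numbered libraries was seen. Correlations of deviations between such libraries were 0.014, -0.0443 and 0.00347. Counting noise can hide a shared culture or day, so correlations this small do not exclude one. The replicate block gave 3299 rises and 3071 falls, and 1186 and 119 of at least 2-fold. Replicate pairs differed beyond counting noise.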

Other observations

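Genes of the hypoxia and glycolysis list moved upward more often than not. Over all tested genes 25.6% rose and 23.9% fell, which is the background for each list below. Of 30 tested genes 17 rose and 5 fell, with a median log2 fold change of 0.24. NDRG1 read 45.7 and 47.9 CPM with DMSO and 133 and 139 CPM with EPZ-6438 (1.54 ± 0.05, SE), and the carbonic anhydrase CA9 read 51.8 and 53.8 CPM and then 90.1 and 91.9 CPM (0.79 ± 0.05). Of BMP, activin and TGF-beta pathway genes, 17 of 28 tested rose and 3 fell, among them ID1, a BMP target, at 1.02 ± 0.06, and the type I receptor TGFBR1 at 0.95 ± 0.08, while the ligand subunit INHBA fell by 0.59. Chaperones and folding enzymes of the unfolded protein response rose slightly, 10 of 18 with 1 lower, and HSP90B1 was at 0.32 ± 0.03.

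In the list of NRF2 targets and AKR1C reductases 6 of 21 tested genes rose and 7 fell, so the list had no common direction. TXNRD1 (thioredoxin reductase) rose by 0.49 and SLC7A11 fell by 1.49. Among lipid synthesis genes 8 of 28 rose and 15 fell: the desaturase SCD rose by 0.27 and fatty acid synthase (FASN) fell by 0.37. The tight junction scaffold TJP3 read 3.08 and 2.38 CPM with DMSO and 24.4 and 24.7 CPM with EPZ-6438 (3.17 ± 0.16, SE). Only 47 tested genes were annotated as long non-coding RNA, of which 4 rose and 8 fell, and LINC00339 was at 6.39 and 6.19 CPM and then 9.27 and 9.73 CPM (0.60 ± 0.15).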
